A study of Mus musculus with 13 samples.

Results

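The genes described here encode 9 secreted proteins of the extracellular matrix: fibronectin (Fn1), tenascin C (Tnc), periostin (Postn), SPARC (Sparc) and the 5 thrombospondins (Thbs1, Thbs2, Thbs3, Thbs4 and Comp, the gene of cartilage oligomeric matrix protein). They were picked by gene symbol, by a rule that uses no measured value, from the 20270 genes of the deposited tables. All 9 were found in both tables and passed the filter on low counts, Thbs4 and Comp only through the bleomycin libraries. Fibronectin is laid down early in wound repair and is assembled into fibrils through integrins. Tenascin C, periostin, SPARC and the thrombospondins are matricellular proteins, which build little of the scaffold themselves and instead tune how cells attach to it, how collagen is assembled and how growth factors are held. In adult lung some of them are kept low and are known to be induced after injury, largely by activated fibroblasts, while thrombospondin 1 is also stored in platelets and made by macrophages.

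Lung RNA came from the lower right lobe of 13 mice. The 4 control mice and the 5 wildtype (WT) mice given bleomycin were C57BL/6J, described as males of 13 weeks, and the 4 CB1R KO mice were Cnr1-/-, lacking the gene of cannabinoid receptor 1, on the same background. The age of the CB1R KO mice is not given in the sources used here, and control groups of the study received the vehicle, saline. Both bleomycin groups had received 1 U per kg of this DNA-damaging drug by oropharyngeal aspiration and were sampled 14 days later. No untreated CB1R KO lungs were analysed here, so the deletion was compared only within bleomycin-treated lungs. Values of single mice are listed in the order of label numbers 3, 21, 24 and 26 (control), then 4, 2, 5, 4-B2 and 7 (WT bleomycin), then 8, 9, 10 and 11 (CB1R KO bleomycin). The labels 4 and 4-B2 share a number and do not say how these libraries relate. They are counted as separate mice here. Total estimated counts ran from 14615904 to 16662580 in 12 libraries and reached 53463884 in CB1R KO replicate 11, so values are given as counts-per-million (CPM) after scaling of the libraries, or as transcripts-per-million (TPM), which are also scaled for transcript length. P-values set the difference between groups against the spread between these mice, estimated jointly over the 3 groups. In whole-lung RNA, fewer cells of a type and less RNA per cell cannot be told apart.

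Cnr1 was counted in all libraries, at 4.10, 1.62, 2.88 and 2.06 CPM in control, 6.97, 5.68, 6.56, 3.46 and 6.17 CPM in WT bleomycin and 5.63, 2.47, 4.60 and 3.47 CPM in the libraries labelled CB1R KO. The KO and WT ranges overlapped (log2 fold change -0.53, standard error 0.28, adjusted p = 0.367, edgeR). The tables do not show which part of the gene these counts came from, so they do not check the genotype and the directions below rest on the labels.

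Levels between genes were compared in TPM. In control lungs Sparc had the highest median, 1089 TPM, followed by Postn at 204, Fn1 at 120.3, Thbs1 at 74.0 and Thbs3 at 33.3. Tnc (4.77 TPM) and Thbs2 (1.38 TPM) were far lower, and Comp and Thbs4 were near the limit of detection with medians of 0.240 and 0.225 TPM. Over the control libraries the ranges of Fn1 and Thbs1 overlapped, as did those of Comp and Thbs4, and all other neighbours in this order were separated. In WT bleomycin lungs the order changed: Fn1 (median 1020.0 TPM) and Thbs1 (366 TPM) stood above Postn (249.8 TPM), and Tnc (119 TPM) stood above Thbs3 (26.5 TPM), each pair without overlap. Together the 9 genes held 1371 to 1569 TPM in control, 4156 to 4943 TPM in WT bleomycin and 3346 to 3982 TPM in CB1R KO bleomycin libraries. Sparc alone made up 68.3% to 72.3% of that sum in control and 60.1% to 63.0% in WT bleomycin libraries, while the share of Fn1 was 7.10% to 8.96% in control and 18.9% to 22.6% in WT bleomycin libraries.

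**Figure D1:**
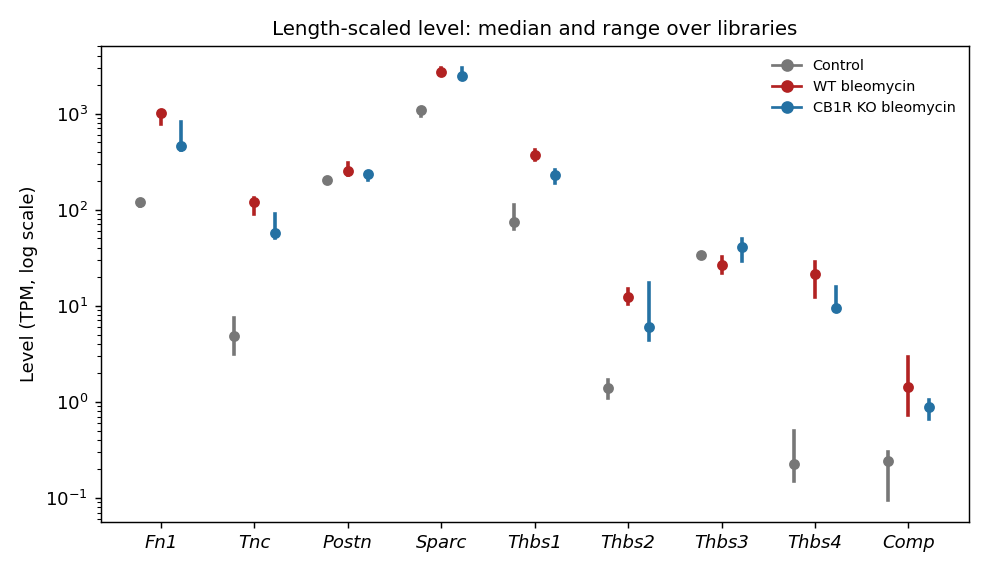
Level of the 9 genes in TPM on a log axis, with points at the median and bars spanning the range over the 4 control, 5 WT bleomycin and 4 CB1R KO bleomycin libraries. Control medians run from 0.225 TPM for Thbs4 to 1089 TPM for Sparc, and the bars of Postn and Thbs3 lie close together in the 3 groups while those of Thbs4 and Tnc lie far apart.

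The comparison of WT bleomycin with control lungs asked how these genes stood 14 days after injury. Of the 9 genes, 8 rose and 1, Thbs3, fell at an adjusted p under the threshold of 0.05 (quasi-likelihood test of edgeR, adjusted over 15315 genes by Benjamini-Hochberg). In the same test 25.0% of all genes were higher and 23.9% were lower. Each of the 9 genes also showed no overlap in CPM between the groups, 8 upwards and 1 downwards, against 21.5% and 18.8% of all genes tested. Thbs4 and Comp entered the test only through the libraries where they are high, so they add no support to these counts. The median log2 fold change of the 9 genes was 2.65 and that of all genes was -0.01.

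**Figure D2:**
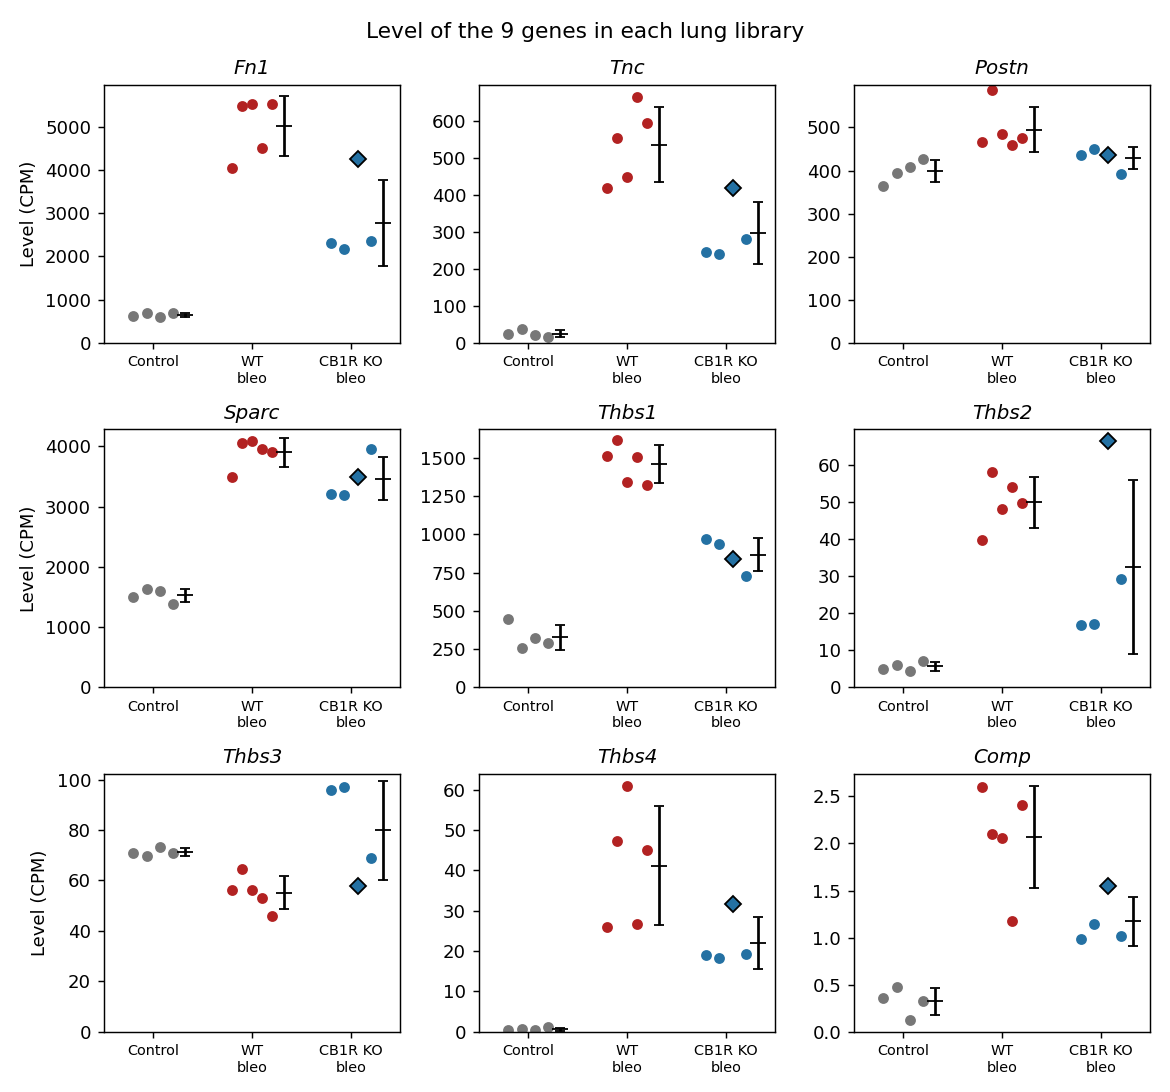
Level in CPM of each gene in each library, with the vertical axes starting at 0, points for single mice and the mean with SD to the right of each group. The diamond marks CB1R KO replicate 10, which lies with or just under the WT bleomycin points for Fn1, Tnc, Thbs3, Thbs4 and Comp, above them for Thbs2, and with the other CB1R KO points for Thbs1 and Postn.

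Fibronectin is the ligand of integrin alpha5 beta1 and carries the first matrix onto which collagen is deposited. Fn1 was at 623, 691, 596 and 688 CPM in the 4 controls and at 4052, 5484, 5535, 4516 and 5534 CPM in the 5 WT mice given bleomycin. All 5 treated lungs were far above the control range, and the fitted group level was 7.74-fold higher (log2 fold change 2.95, standard error 0.19, adjusted p = 8.31e-08, edgeR). Tenascin C, a multi-armed glycoprotein that weakens the hold of cells on fibronectin, had 24.1, 37.0, 22.2 and 15.8 CPM in control and 418, 554, 447, 664 and 593 CPM in WT bleomycin libraries. Tnc thus went from a low level to that of an abundant gene, a 21.5-fold rise (log2 fold change 4.43, standard error 0.26, adjusted p = 4.31e-08, edgeR).

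SPARC binds collagen on its way out of the cell and in the matrix. Its control values of 1499, 1635, 1594 and 1387 CPM rose to 3486, 4053, 4094, 3962 and 3907 CPM, a 2.55-fold rise from a level that was already the highest of the set (log2 fold change 1.35, standard error 0.09, adjusted p = 6.90e-08, edgeR). Periostin, which helps to link collagen with fibronectin and tenascin C and is often used as a marker of fibrosis, moved little. Postn was at 365, 394, 409 and 427 CPM in control and at 466, 588, 486, 459 and 476 CPM in WT bleomycin libraries. The groups did not overlap, yet the rise was 1.24-fold (log2 fold change 0.31, standard error 0.08, adjusted p = 0.00471, edgeR).

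Among the thrombospondins, Thbs1 and Thbs2 encode the trimeric members that bind CD36 and CD47, and thrombospondin 1 can release TGF-beta from its latent complex. Thbs1 was at 445, 256, 321 and 286 CPM in control and at 1514, 1617, 1344, 1503 and 1325 CPM in WT bleomycin libraries, a 4.47-fold rise (log2 fold change 2.16, standard error 0.15, adjusted p = 9.59e-08, edgeR). Thbs2 was at 4.99, 6.13, 4.48 and 7.09 CPM in control and at 39.8, 58.0, 48.1, 54.1 and 49.7 CPM in WT bleomycin libraries, an 8.80-fold rise (log2 fold change 3.14, standard error 0.37, adjusted p = 1.11e-05, edgeR). In both genes the lowest treated lung was well above the highest control.

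Thbs3, Thbs4 and Comp encode the pentameric thrombospondins, which lack the region through which thrombospondin 1 acts on latent TGF-beta. Thbs4 was at the edge of detection in control lungs, with 6, 10, 5 and 17 estimated counts (0.357, 0.601, 0.320 and 1.10 CPM), and was at 26.0, 47.3, 60.9, 26.7 and 45.2 CPM in WT bleomycin lungs. This 69.3-fold rise was the largest of the 9 genes (log2 fold change 6.11, standard error 0.40, adjusted p = 7.64e-08, edgeR). Its size rests on a control level of a few counts per library, and the log2 value moved between 3.96 and 6.69 over the alternatives tried. Comp, known mainly from cartilage and tendon, held 6, 8, 2 and 5 estimated counts in control and 41, 34, 33, 17 and 39 in WT bleomycin libraries, a 6.29-fold rise on few counts (log2 fold change 2.65, standard error 0.35, adjusted p = 2.39e-05, edgeR). Thbs3 went the other way, from 70.7, 69.6, 73.3 and 70.9 CPM in control to 56.3, 64.6, 56.1, 53.2 and 46.0 CPM. The groups did not overlap, but the fall was small (log2 fold change -0.36, standard error 0.13, adjusted p = 0.0361, edgeR) and lost the call in 11 of 25 alternatives (each control left out, WT bleomycin 4, 5, 4-B2 or 7 left out, limma at either pseudocount, and lower-case titles only), with adjusted p between 0.000344 and 0.238 over all of them.

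The region before the start of Tnc and Thbs4, the genes with the largest rises, and of Thbs3, the gene that fell, is shown to let their letters be compared (RefSeq, GRCm38.p6, 250 bases before the annotated start, 5′ to 3′ on the gene's strand, for Tnc before the start farthest upstream of 2). Capitals mark matches, on either strand, to 6 short motifs that were searched: TATAAA (the TATA element), CCAAT (bound by NF-Y), GGGCGG (bound by Sp1), TGANTCA (AP-1), GGAATG (TEAD) and GTCTAGAC (SMAD).
Tnc, chr4:64047016-64047265, minus strand: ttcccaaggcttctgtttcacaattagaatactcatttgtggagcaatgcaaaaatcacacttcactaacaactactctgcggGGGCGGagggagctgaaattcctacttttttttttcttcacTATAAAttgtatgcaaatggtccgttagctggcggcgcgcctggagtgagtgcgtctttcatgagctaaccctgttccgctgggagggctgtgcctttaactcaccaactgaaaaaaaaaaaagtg
Thbs4, chr13:92794819-92795068, minus strand: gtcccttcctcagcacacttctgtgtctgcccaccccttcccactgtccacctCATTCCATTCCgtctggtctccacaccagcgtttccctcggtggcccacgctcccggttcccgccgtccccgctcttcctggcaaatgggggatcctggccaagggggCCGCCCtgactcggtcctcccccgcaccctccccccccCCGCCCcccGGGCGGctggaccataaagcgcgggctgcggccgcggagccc
Thbs3, chr3:89214930-89215179, plus strand: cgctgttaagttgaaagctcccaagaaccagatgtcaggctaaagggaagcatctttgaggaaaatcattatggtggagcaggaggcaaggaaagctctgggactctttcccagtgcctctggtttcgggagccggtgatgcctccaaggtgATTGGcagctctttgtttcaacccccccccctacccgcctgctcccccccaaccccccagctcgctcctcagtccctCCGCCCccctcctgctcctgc
The Tnc window held TATAAA and GGGCGG, 126 and 167 bases before the start. The Thbs4 window held 3 matches to GGGCGG and 2 to GGAATG, the latter overlapping each other. The Thbs3 window held CCAAT on the reverse strand, 98 bases before the start, and GGGCGG at 21 bases. Over 32851 windows of the same length in the table, TATAAA was in 12.4%, CCAAT in 33.8%, GGGCGG in 32.7% and GGAATG in 12.6%. TGANTCA and GTCTAGAC, in 6.75% and 0.167% of the windows, were in none of the 6 windows given for these genes. A match is a description of letters and not a site.

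The comparison of CB1R KO with WT bleomycin lungs asked what the deletion changed in injured lungs. Of the 9 genes, 2, Fn1 and Thbs1, passed an adjusted p of 0.05 as lower in the libraries labelled CB1R KO, and none passed as higher (edgeR). Of all genes, 0.620% were called lower and 0.359% higher. Before adjustment, 6 of the 9 were lower and 1, Thbs3, was higher with p under 0.05, against 9.08% and 7.95% of all genes. The CPM of Tnc, Postn and Thbs1 in all 4 CB1R KO libraries lay below all 5 WT libraries, against 3.10% of all genes. None of the 9 lay wholly above, against 2.50%. The median log2 fold change of the 9 genes was -0.75 and that of all genes was 0.0005.

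Thbs1 was at 968, 938, 835 and 726 CPM in CB1R KO libraries 8, 9, 10 and 11. Each of the 4 was below the lowest WT value of 1325 CPM and above the highest control value of 445 CPM. The level was 0.593 times that of WT bleomycin (log2 fold change -0.75, standard error 0.14, adjusted p = 0.0266, edgeR). Fn1 was at 2307, 2176, 4269 and 2351 CPM. Replicates 8, 9 and 11 were close to one another and below every WT library, while replicate 10 lay inside the WT range of 4052 to 5535 CPM. The fitted level was 0.552 times that of WT (log2 fold change -0.86, standard error 0.18, adjusted p = 0.0389, edgeR).

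Both calls depended on single libraries. With any one of WT bleomycin replicates 2, 5, 4-B2 and 7 or CB1R KO replicates 8, 9 and 11 left out, 0 of the 9 genes passed. Few genes of any kind passed in those fits, from 1 without CB1R KO replicate 9 to 62 without WT bleomycin replicate 2, and the log2 fold changes in them ran from -0.89 to -0.75 for Fn1 and from -0.81 to -0.67 for Thbs1. Without control replicate 21 or 24 Thbs1 alone of the 9 passed. Over all 25 alternatives the adjusted p ran from 0.000146 to 0.212 for Fn1, called in 13, and from 2.62e-10 to 0.131 for Thbs1, called in 17. DESeq2 on the 13 libraries called 4 of the 9 genes, Fn1, Tnc and Thbs1 lower and Thbs3 higher, and 3.25% of all genes.

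The other genes did not pass in the main test. Tnc was at 244, 239, 417.6 and 281 CPM in CB1R KO libraries, with replicate 10 just under the lowest WT value, 418.0 CPM (log2 fold change of -0.86, standard error 0.22, adjusted p = 0.0702, edgeR). Thbs2 was at 16.7, 17.1, 66.5 and 29.2 CPM, and replicate 10 was above every WT value (a log2 fold change of -0.63, standard error 0.32, adjusted p = 0.333). Thbs4 was at 19.0, 18.3, 31.7 and 19.2 CPM, with replicate 10 again inside the WT range (log2 fold change -0.91, standard error 0.25, adjusted p = 0.0979). Comp held 15, 19, 25 and 55 estimated counts, the last in the deepest library, or 0.981, 1.15, 1.55 and 1.02 CPM (log2 fold change -0.83, standard error 0.28, adjusted p = 0.157). The 2 genes with the smallest differences were Postn and Sparc. Postn was at 437, 450.3, 437 and 392 CPM (log2 fold change -0.21, standard error 0.08, adjusted p = 0.204), and Sparc at 3204, 3199, 3484 and 3961 CPM, with replicate 11 inside the WT range (log2 fold change -0.17, standard error 0.08, adjusted p = 0.312). Thbs3 differed in the opposite direction, at 96.0, 97.0, 57.8 and 69.0 CPM against a WT range of 46.0 to 64.6 CPM (log2 fold change 0.53, standard error 0.13, adjusted p = 0.0702). Each adjusted p is from edgeR.

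**Figure D3:**
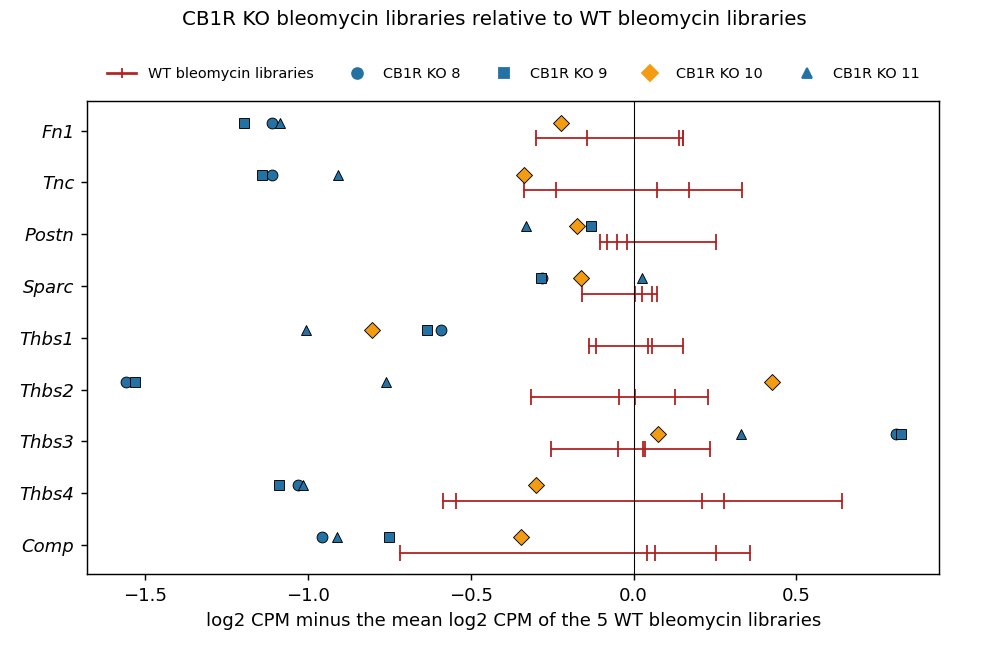
Difference on the log2 CPM scale between each CB1R KO bleomycin library and the mean of the 5 WT bleomycin libraries, whose own values are the vertical ticks. Replicates 8 and 9 lie below the WT range for 8 genes and above it for Thbs3, and replicate 10 (orange diamond) lies inside the WT range for Fn1, Thbs3, Thbs4 and Comp and above it for Thbs2.

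The 4 libraries labelled CB1R KO were therefore unequal. Replicates 8 and 9 were below the WT range for 8 genes and above it for Thbs3, and replicate 11 was below it for 7. Replicate 10 was below it for 4, inside it for 4 and above it for 1. The median difference from the WT mean over the 9 genes was -0.96, -0.75, -0.22 and -0.91 on the log2 CPM scale for replicates 8, 9, 10 and 11. Replicate 10 was singled out by its values for these same genes, so the fit without it is no further support for a difference. Without replicate 10, 6 of the 9 genes passed, 5 lower and 1 higher, where 2.53% of all genes were lower and 1.71% higher. In that fit the log2 fold change was -1.23 for Thbs2 (standard error 0.19, adjusted p = 0.00464, edgeR), -1.14 for Fn1, -1.13 for Thbs4, -1.07 for Tnc, -0.73 for Thbs1 and 0.66 for Thbs3. Replicate 10 was also nearest to the WT libraries in several lists of cell type markers, type II cells among them, but not in all, as given further on.

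Against control, 7 of the 9 genes passed as higher in CB1R KO bleomycin lungs and none as lower, where 19.0% of all genes passed as higher and 16.3% as lower. The same 7 showed no overlap in CPM with control and lay above it, against 17.7% of all genes, and none lay below it, against 15.8%. Thbs4 and Comp, which passed the count filter only through bleomycin libraries, add no support here either. Fn1 was 4.28-fold higher (log2 fold change 2.10, standard error 0.19, adjusted p = 3.53e-06, edgeR), Tnc 11.9-fold, Sparc 2.26-fold, Thbs1 2.65-fold, Thbs2 5.69-fold, Thbs4 36.9-fold and Comp 3.53-fold. Postn (log2 fold change 0.10, standard error 0.08, adjusted p = 0.345) and Thbs3 (log2 fold change 0.17, standard error 0.14, adjusted p = 0.380) did not pass, and their ranges overlapped those of control. The comparisons with control share the 4 control libraries, and those with WT bleomycin share its 5, so their values stand side by side without a test of likeness.

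**Figure D4:**
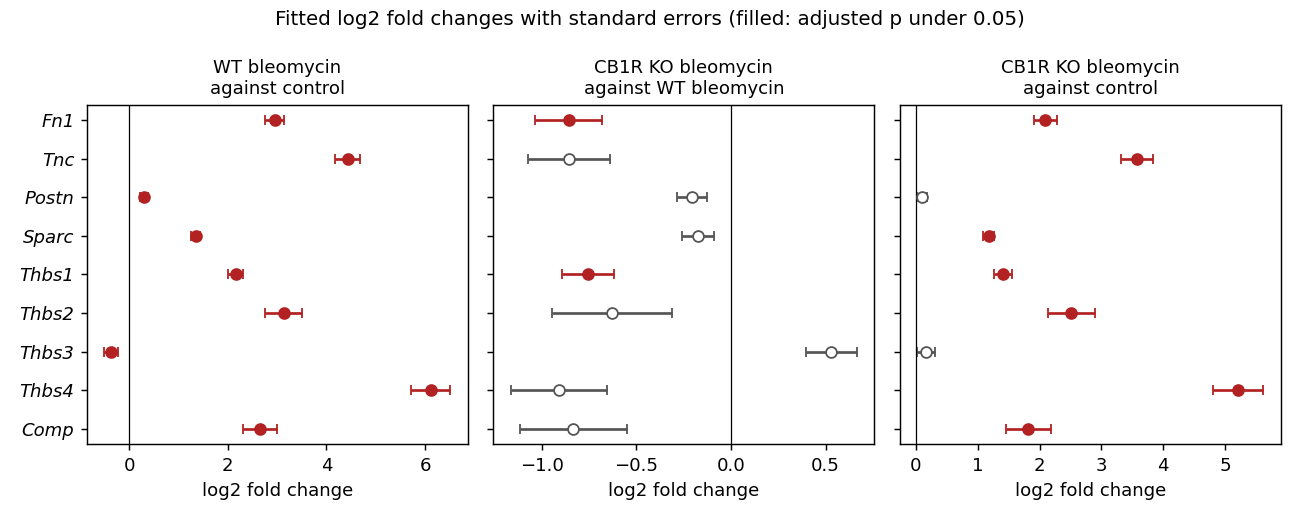
Fitted log2 fold change with its standard error for each gene in the 3 comparisons, each on its own horizontal scale, with filled points for genes that passed an adjusted p of 0.05. In the middle panel Fn1 and Thbs1 are filled, 8 genes lie below 0 and Thbs3 lies above it.

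The ratio of estimated count to TPM follows the mean length of the transcripts counted for a gene, weighted by abundance, and shows shifts between long and short isoforms that the level does not. It was taken as log2, centred on each library's median and tested with limma for the 12855 genes above 1 TPM in every library. Fibronectin is known for its alternatively spliced extra domains, and GENCODE M21 lists 9 protein-coding transcripts of Fn1, of 671 to 8315 bases, against a single one of 5848 bases for Thbs1. The index of Fn1 was 1.600 to 1.608 in control and 1.614 to 1.628 in WT bleomycin libraries, a difference of 0.016 (standard error 0.004, adjusted p = 0.219, limma). Thbs1 and Thbs2, each with 1 protein-coding transcript in GENCODE M21, differed by 0.007 there and by -0.005 between CB1R KO and WT bleomycin. Fn1 differed by -0.012 in the latter comparison, and its difference was the larger in both. What the index of Fn1 reflects was not tested. For Tnc, which is also spliced, the ranges overlapped (difference 0.007, standard error 0.007, adjusted p = 0.545, limma). None of the 7 genes that could be tested (all but Thbs4 and Comp) passed in any comparison, where 0.622% of all genes passed in WT bleomycin against control, 0.00% in CB1R KO against WT bleomycin and 0.117% in CB1R KO bleomycin against control. Before adjustment 1 of the 7, Fn1, had p under 0.05 in each of the first 2 of these, against 8.32% and 3.93% of all genes, and none did in the last, against 6.24%.

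In GENCODE M21, 273 exon bases of Thbs3 on chromosome 3 are shared on the opposite strand with transcripts of Mtx1, a gene of mitochondrial import. No Mtx1 exon within the span of Thbs3 is from a protein-coding transcript. Fn1, Thbs1 and Tnc likewise share 292, 187 and 176 exon bases with Apol7d, Gm29233 and 8030451A03Rik on the opposite strand. No source used here says that counting used strand, so part of the counts of these genes could belong to the opposite transcripts. The deposited Mtx1 values sum protein-coding transcripts only, so they do not measure the overlapping Mtx1 transcripts. Mtx1 was at 11.9, 11.5, 10.8 and 12.2 CPM in control and at 11.8, 16.2, 13.6, 18.0 and 13.5 CPM in WT bleomycin libraries (log2 fold change 0.33, standard error 0.13, adjusted p = 0.0396, edgeR), the direction opposite to Thbs3. Between CB1R KO and WT bleomycin it differed by -0.14 (standard error 0.12, adjusted p = 0.610).

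Relatives of the 9 genes moved in both directions. Of 10 other tenascins and SPARC family genes, 8 were tested. In WT bleomycin against control, 3 rose and 2 fell, against 25.0% and 23.9% of all genes, with a median log2 fold change of 0.11. Fstl1, a follistatin-like member, rose most (log2 fold change 1.98), followed by Sparcl1 (0.73) and Spock2 (0.20, adjusted p = 0.0476, edgeR). Spock2 kept the call in 13 of 25 alternatives, and without control replicate 26 the list's calls went from 5 to 3. Tnxb, the tenascin that spaces collagen fibrils in resting tissue, fell from 330.3 ± 66.4 CPM (SD, n = 4) to 113 ± 14.9 CPM (SD, n = 5), a log2 fold change of -1.55 against the 4.43 of Tnc (adjusted p = 6.90e-06, edgeR), and Smoc1 fell by 1.04. None of the 8 passed between CB1R KO and WT bleomycin, 4 with an unadjusted p under 0.05 (edgeR). In that comparison 9.08% of all genes were lower and 7.95% higher at the same unadjusted threshold. There Tnxb was at 176 ± 52.4 CPM (SD, n = 4; log2 fold change 0.64, adjusted p = 0.0859, edgeR).

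Of 18 other matricellular and adhesive matrix proteins, 17 were tested. With bleomycin 8 rose and 2 fell, against 25.0% and 23.9% of all genes (median log2 fold change 0.46). Spp1, the gene of osteopontin and also a marker of scar-associated macrophages, rose by 3.81, Tgfbi by 1.37, Emilin1 by 1.34 and Fbln5 by 0.68, while the plasma adhesion protein Vtn had a log2 fold change of -1.25 and Edil3 of -0.86. The gene of this list that passed between CB1R KO and WT bleomycin was Fbln1, a fibronectin-binding fibulin. It was at 85.6 ± 7.66 CPM (SD, n = 4) in control, 85.0 ± 4.60 CPM (SD, n = 5) in WT bleomycin and 114 ± 6.88 CPM (SD, n = 4) in CB1R KO bleomycin lungs (log2 fold change 0.43 with standard error 0.07, adjusted p = 0.0177, edgeR), and had not passed between WT bleomycin and control (log2 fold change -0.01, adjusted p = 0.914). It kept the call in 21 of 25 alternatives and lost it without CB1R KO replicate 8, 9 or 11 and with lower-case titles only.

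All 18 receptors of the 9 proteins were tested. With bleomycin 11 rose and 3 fell, against 25.0% and 23.9% of all genes (median log2 fold change 0.43). Itga5, the alpha chain of the main fibronectin receptor, was at 75.4 ± 6.49 CPM (SD, n = 4) in control, 172 ± 16.8 CPM (SD, n = 5) in WT bleomycin and 123 ± 15.2 CPM (SD, n = 4) in CB1R KO bleomycin lungs. It rose with bleomycin (log2 fold change 1.19, adjusted p = 3.25e-07) and was the receptor that passed between CB1R KO and WT bleomycin (log2 fold change -0.48, standard error 0.09, adjusted p = 0.0281, edgeR), in 15 of 25 alternatives. That call was lost without WT bleomycin 2, 5, 4-B2 or 7 or CB1R KO 8, 9 or 11, with the title style as a term, with lower-case titles only and with limma at a pseudocount of 0.1. Itgav (0.76), Calr (0.72) and Sdc1 (0.66) also rose with bleomycin. The thrombospondin receptors Cd47 (-0.45) and Cd36 (-0.45) and the integrin chain Itga8 (-1.30) fell while Thbs1 and Thbs2 rose.

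Of the 16 enzymes that cut, process or crosslink the 9 proteins, 14 rose and 1, Mmp9, fell (median log2 fold change 1.73). Of all genes, 25.0% rose and 23.9% fell. Adamts4 rose by 4.93 on the log2 scale, Adamts12 by 3.59, Mmp14 by 2.48 and Mmp2 by 2.24. Adamts4, at 34.6 ± 4.62 CPM (SD, n = 5) in WT and 15.2 ± 7.01 CPM (SD, n = 4) in CB1R KO bleomycin lungs, was lower in the latter (log2 fold change -1.18, standard error 0.22, adjusted p = 0.0266, edgeR). Mmp3, at 62.0 ± 13.1 CPM (SD, n = 5) and 29.8 ± 4.86 CPM (SD, n = 4), was lower as well (log2 fold change -1.06, standard error 0.17, adjusted p = 0.0177, edgeR). Mmp3 kept the call in 21 of 25 alternatives and Adamts4 in 17. Without CB1R KO replicate 8, 9 or 11 and with lower-case titles only both calls were lost, and that of Adamts4 also without WT bleomycin 2, 5 or 4-B2 and with edgeR on 2 groups. The other 14 enzymes did not pass between CB1R KO and WT bleomycin.

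Cell type markers moved beside these genes, and their part in the results was not tested. With bleomycin, 10 of 11 genes of monocyte-derived macrophages and 6 of 10 of fibroblasts rose and none fell. Of all genes, 25.0% rose and 23.9% fell. The summed level of the macrophage list was 276 to 404 TPM in control, 2877 to 3338 TPM in WT bleomycin and 1880 to 2960 TPM in CB1R KO bleomycin libraries. That of the fibroblast list was 1139 to 1272, 2759 to 3597 and 2675 to 3255 TPM. These sums rest largely on few genes. Spp1, also in the matricellular list, held 1667 to 2198 TPM in WT and 1100 to 1720 TPM in CB1R KO bleomycin libraries. In WT bleomycin libraries Col3a1 held 849 to 1102, Col1a2 505 to 735 and Col1a1 375 to 617 TPM. Of the smooth muscle and pericyte list 4 rose and 2 fell. Platelet and megakaryocyte genes, which would accompany platelet Thbs1, went the other way: 10 of 11 fell, and their sum was 95.9 to 163 TPM in control, 43.1 to 66.9 TPM in WT bleomycin and 52.2 to 64.4 TPM in CB1R KO bleomycin libraries. Control replicate 3, the control highest in Thbs1, was also the highest control in this sum. It was the highest control in the endothelial, adipocyte and neutrophil sums as well, and a link to Thbs1 was not tested. Chondrocyte genes, which would accompany Comp in cartilage, had 1 higher and 0 lower of 3 tested with bleomycin, the higher being Hapln1, 3.33-fold (adjusted p = 0.00209, edgeR). Their sum was 2.19 to 3.06 TPM in control, 3.15 to 4.42 TPM in WT bleomycin and 2.34 to 4.15 TPM in CB1R KO bleomycin libraries, without overlap between control and WT bleomycin. The defining genes Acan and Col2a1 reached at most 0.148 and 0.262 TPM in any library.

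Of the other lists, the type II cell list had 1 gene higher and 5 lower of 9 with bleomycin, type I 1 and 3 of 8, endothelium 0 and 10 of 10, mesothelium 1 and 4 of 8, alveolar macrophage 1 and 3 of 10, neutrophil 0 and 4 of 7 tested, cardiac muscle 0 and 10 of 10, adipocyte 0 and 4 of 9 tested, and skeletal muscle and tendon 0 and 1 of 6 tested. These counts stand beside 25.0% of all genes higher and 23.9% lower with bleomycin. Between CB1R KO and WT bleomycin no fibroblast, monocyte-derived macrophage, platelet or chondrocyte gene passed in edgeR. Their unadjusted p was under 0.05 for 5 of 10, 5 of 11, 1 of 11 and 0 of 3 tested. At that threshold 9.08% of all genes were lower and 7.95% higher. In the same comparison Actg2 (log2 fold change -0.80) and Tagln (-0.63) of smooth muscle were lower and the type II genes Sftpc (0.66), Sftpa1 (0.84) and Lamp3 (0.51) and the endothelial gene Tek (0.29) were higher. Each of these 6 calls was lost without CB1R KO replicate 8, 9 or 11, and without WT bleomycin 5, 4-B2 or 7 all but that of Tagln were lost. They held in 22 of 25 alternatives for Tagln, 17 for Actg2, 14 for Sftpa1 and Tek, 13 for Sftpc and 11 for Lamp3. Cardiac muscle genes had no call there but the largest median log2 fold change of the lists, 1.05, with unadjusted p under 0.05 for 8 of 10 and sums of 143 to 549 TPM in WT and 521 to 958 TPM in CB1R KO bleomycin libraries. The median of the adipocyte list was 0.97, with 4 of 9, and that of the type II list 0.42, with 8 of 9. Type II genes summed to 26182 to 33041 TPM in WT bleomycin libraries and to 45150.0, 49269, 34504 and 48237 TPM in CB1R KO replicates 8, 9, 10 and 11. Replicate 10, nearest to WT in Fn1, Tnc and Thbs3, was also nearest to WT in these, though above the WT range. It was the only CB1R KO library inside the WT range in monocyte-derived macrophage (2960 TPM), type I (3889 TPM) and endothelial (2258 TPM) sums. In smooth muscle and pericyte and in cardiac muscle sums replicate 10 was outside that range, where replicate 9 and replicate 11, in that order, were inside.

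**Figure D5:**
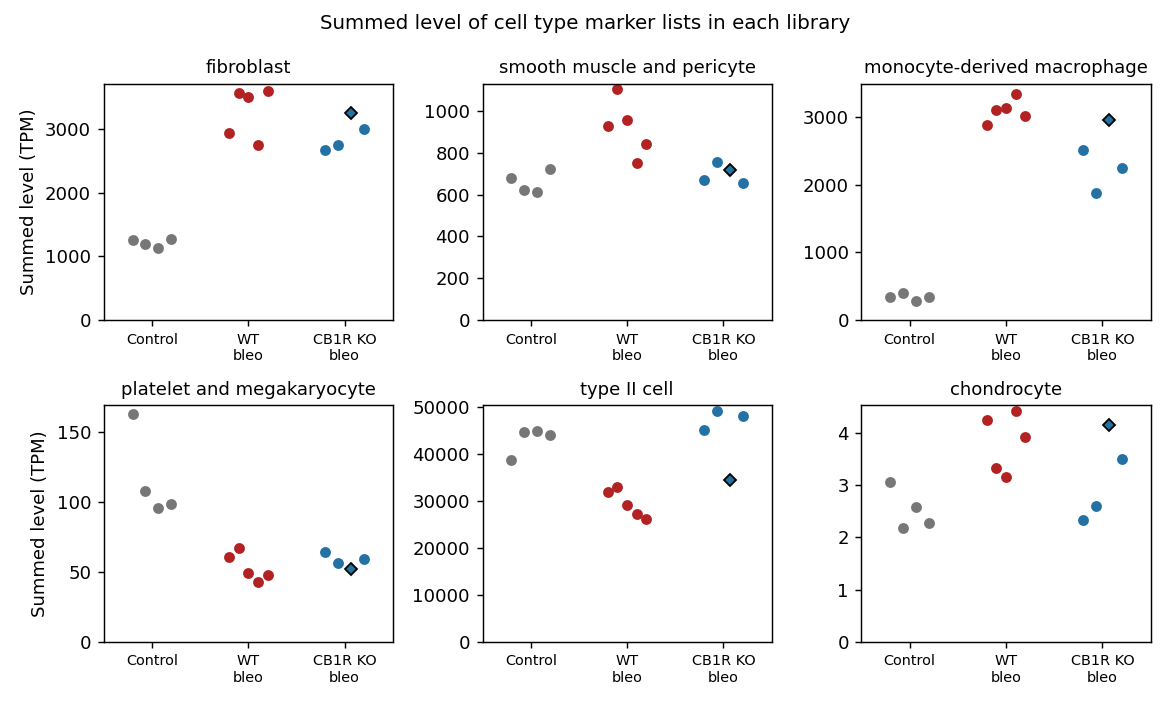
Summed TPM of 6 cell type marker lists in each library, with axes starting at 0 and the diamond marking CB1R KO replicate 10. Platelet and type II sums are lower in WT bleomycin than in control libraries, fibroblast and macrophage sums are higher, and chondrocyte sums, all at 4.42 TPM or less, are also higher in WT bleomycin (3.15 to 4.42 TPM) than in control (2.19 to 3.06 TPM) libraries.

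The genes whose pattern over the 13 libraries was nearest to each of the 9, by the mean absolute difference in log2 CPM after centring each gene on its own mean, are a description only, since all points share the same libraries and 3 groups. Nearest to Fn1 were the collagen gene Col5a2 (0.15), Sfrp1 (0.19) and Cthrc1 (0.20), and among the 9 it was Thbs2 (0.25). Nearest to Thbs2 were Col5a3 (0.24), Megf11 (0.25) and Fn1 (0.25). Nearest to Tnc were Speer4c (0.22) and the acute-phase gene Saa3 (0.28). Nearest to Sparc were Lgmn, Cstb and Ppic (0.07 to 0.08). Thbs1 lay nearest to Fcgr1 (0.17), S100b (0.19) and Tnfrsf12a (0.19), and Comp to Ccl9 (0.22), Cd109 (0.25) and Nlrp1b (0.27). Thbs4 had no close match, with Chodl at 0.60, Cemip at 0.64 and Chl1 at 0.65. Thbs3 lay nearest to Slc1a3, Dram1 and Lamp3 (0.12 each), the last of them a type II cell marker, and Postn, which hardly varied, to Eif3l, Eif4g1 and Pisd (0.06 to 0.07).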

How the data were processed

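Libraries of oligo(dT)-enriched RNA (NEBNext Ultra II) were quantified by the authors with Kallisto on the Ensembl mouse transcripts (GRCm39). The deposited estimated counts are not normalized, the deposited TPM are scaled for length and library, and both are sums over a gene's protein-coding transcripts. A value column that matches no sample (1 in all) was not used.

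Estimated counts were rounded, filtered with filterByExpr and tested in edgeR 4.0.16 (R 4.3.3), with TMM scaling, the 13 libraries in 3 groups, no covariate and Benjamini-Hochberg adjustment. Transcript length was tested with limma 3.58.1. Beyond the 9 genes, genes of the 4 related lists that passed between CB1R KO and WT bleomycin, and up to 4 in each direction with the lowest p in WT bleomycin against control, were named. The 9 genes were set by name, not by value, but they, the lists and the tests were chosen with earlier results of these data known. Alternatives were other scalings and filters, DESeq2 1.42.0, limma on log2 TPM, smaller fits, title style, thinning of CB1R KO replicate 11, and leaving out each library. Scripts were tested on simulated data.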

Additional observations from a re-analysis of the deposited data

Results flagged for a closer look

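Of 48 sets of values (the level of the 9 genes and the transcript length index of 7 of them in each of 3 groups), 4 held a library far from the others by Dixon's criterion, the gap to its neighbour divided by the group's range. Chance marks about 1 in 20 such sets. CB1R KO replicate 10 stood above the other CB1R KO libraries in Fn1 (12.06 against 11.09 to 11.20 log2 CPM, ratio 0.885) and in Thbs4 (4.99 against 4.20 to 4.27 log2 CPM, ratio 0.907). WT bleomycin replicate 2 stood above the other WT libraries in Postn (9.20 against 8.84 to 8.93 log2 CPM, ratio 0.769). CB1R KO replicate 11, the deepest library, had a lower transcript length index of Sparc than the other CB1R KO libraries (-0.37 against -0.31 in each, ratio 0.942).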

How the results depend on the processing

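The count of called genes among the 9 was within 1.5 times the main count in all 25 alternatives for WT bleomycin against control (8 to 9 with each library left out in turn) and for CB1R KO bleomycin against control (7 with each left out), and no fold change of the 9 genes reversed. For CB1R KO against WT bleomycin the main count was 2, where 150 of all genes passed. It became 4 with DESeq2 on the 13 libraries and on 2 groups (644 of all genes in each). It was 1 with edgeR on 2 groups (88), 1 with the title style as a term (41) and 0 with lower-case titles only (6). With each library left out in turn it ran from 0 to 6 (1 to 653 of all genes). Some of these fits hold fewer libraries, and the cause of the changes was not tested. A minimum of 10 counts per library removed Thbs4 and Comp. No transcript length call appeared under any of 15 alternatives. Among the alternative fold changes of the 9 genes, 630 kept direction and side of the threshold, 31 lost and 8 gained the call. Small differences outside the calls changed sign. Fbln1 in WT bleomycin against control was 0.022 and 0.023 with limma at pseudocounts of 1 and 0.1 and ran from -0.042 to 0.055 with each library left out. Mmp2 in CB1R KO against WT bleomycin was -0.035 with the title style as a term and ran from -0.017 to 0.082 with each library left out, and Cd47 there ran from -0.012 to 0.108. The transcript length difference of Tnc in that comparison ran from -0.0067 to 0.0037, and in CB1R KO bleomycin against control that of Sparc from -0.0189 to 0.0012 and that of Thbs3 from -0.0106 to 0.0031. No paired analysis was possible because label numbers differ between the groups. Control levels of 2 to 17 estimated counts limit the fold changes of Comp and Thbs4. Title style separates 10 lower-case from 3 other libraries and none of the latter is CB1R KO.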

Other observations

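The estimated counts of Comp and its TPM did not run in parallel. WT bleomycin replicates 4 and 7 held 41 and 39 estimated counts, or 2.60 and 2.41 CPM, while their TPM were 2.91 and 1.53. CB1R KO replicates 8 and 11 held 0.981 and 1.02 CPM, and 0.985 and 0.664 TPM. GENCODE M21 lists 2 protein-coding transcripts of Comp, of 495 and 2416 bases.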
